A study of Caenorhabditis elegans with 2 samples.

Results

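The genes described here are 10 regulators of sex determination and dosage compensation in the nematode Caenorhabditis elegans, taken as a list by name: xol-1, sdc-1, sdc-2, sdc-3, dpy-27, dpy-28, her-1, sex-1, fox-1 and tra-1. All 10 were found among the 19973 nuclear protein-coding genes of the annotation, 5 of them on X, 3 on III and 2 on V. For each gene, every summit of the protein ZTF-26 was collected within the gene or at most 5000 bp from either of its ends, an interval called the gene window below. A summit is the base at which a peak of chromatin immunoprecipitation followed by sequencing (ChIP-seq) is highest.

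In this species sex follows the ratio of X chromosomes to autosomes. X-linked signal elements, among them sex-1 and fox-1, lower the activity of xol-1, a switch gene that is active in XO embryos and directs male development. Where xol-1 is off, the sdc genes act. They repress the male-determining gene her-1 and bring the dosage compensation complex, a relative of condensin that contains DPY-27 and DPY-28, to recruitment sites on both hermaphrodite X chromosomes, whose transcription is then lowered. The pathway ends in tra-1, a GLI-type zinc finger gene that promotes female fates.

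ChIP-seq with an anti-GFP antibody was made on strain OP565, genotype unc-119(tm4063) III with the transgene wgIs565, which expresses ZTF-26 with GFP and FLAG at its C terminus. All libraries came from young adults of both sexes, pooled and grown for 56 hours after arrest as starved L1 larvae, with 2 biological replicates, numbers 3 and 4, in 1 group. The labels describe the antibody as anti-GFP in the text and name ztf-26 in the antibody field. Whole worms were used, so a summit bound in few cells and one bound weakly in many cannot be told apart. The age beyond the stage and the 56 hours is unknown per the labels. The promoter that drives the transgene is not given in the sources used here, and a control library was not analysed here.

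The authors' list of reproducible ("optimal") peaks held 1929 peaks on the build ce11, with signal from 90.2 to 1104 and a median of 131. Signal is the authors' value for each peak, of unstated scale, and serves here to rank and describe peaks. The longer list called from both replicates together held 28233 candidates, and the lists of replicates 3 and 4 held 30000 and 20373. Read counts are not in these lists, so depth is unknown, and with 2 replicates in 1 group no test between conditions exists.

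Of the 10 genes, 3 had an optimal summit in their gene window: xol-1, sdc-2 and dpy-28. Of all protein-coding genes, 19.1% had one, so a count of 3 in 10 (30%) is no result about the list as a whole. On X, 2 of 5 members had one, against 26.8% of the 2731 X-linked genes, and on the autosomes 1 of 5 had one, against 17.9% of 17242 genes. The count moved with the distance allowed. With 2000 bp on each side only sdc-2 remained (1 of 10, against 12.1% of all genes), and with 10000 bp there were 5 of 10, against 28.7%. It also moved with the replicate. In a list of equal length from replicate 4 alone, dpy-27 and tra-1 joined the 3 genes, and in one from replicate 3 alone, tra-1 did. These counts of 5 and 4 of 10 stand against 18.9% of all genes in either list. The promoter window of a gene reached 1000 bp before and 500 bp past the 5' end of any of its transcripts. An optimal summit lay in it at sdc-2 alone of the 10 genes, against 5.69% of all genes.

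Candidates of any rank were common and say little by themselves. Of the 10 genes, 9 had a candidate in the pooled list, against 83.5% of all protein-coding genes. The 10 windows held 84 pooled candidates, of which 5 were in the optimal list and 79 were not. The 79 had signals from 22.4 to 89.3 with a median of 32.2. Each of the 5 optimal summits had a summit within 100 bp in both replicates, as did 90.9% of all optimal peaks. Of the other 79, 17 (21.5%) had one in both, against 23.9% of all candidates outside the optimal list. The strength of the strongest summit ordered the genes as dpy-28, xol-1, sdc-2, tra-1, dpy-27, sex-1, her-1, sdc-1 and fox-1, with sdc-3 at none. Longer genes have longer windows, and some of these summits lie nearer to another gene. This order takes no account of either.

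**Figure D1:**
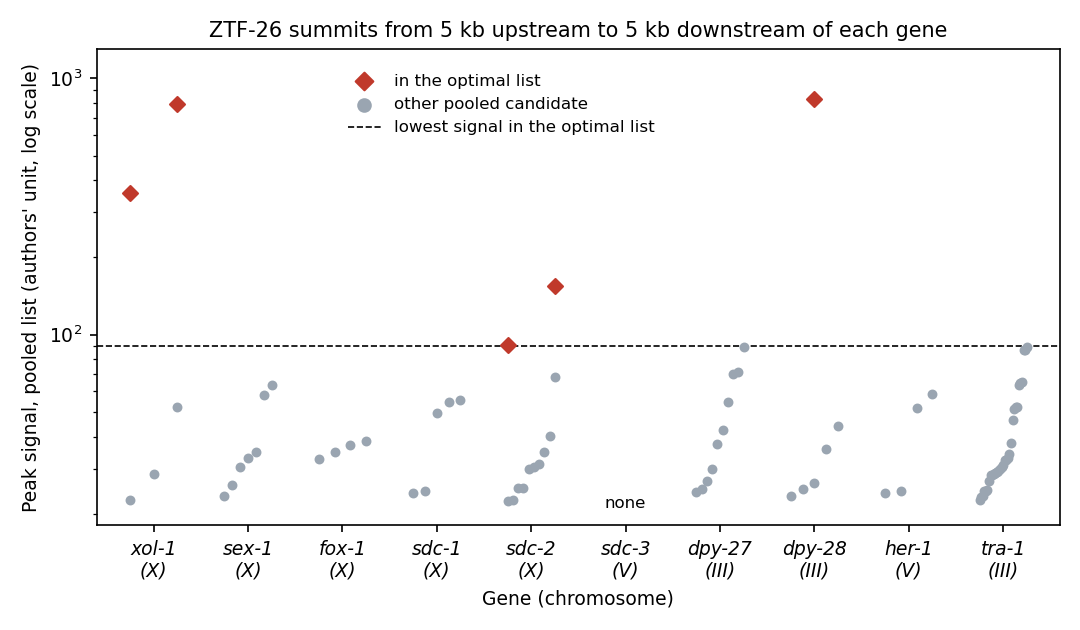
Signal of each pooled summit (log scale, authors' unit) in the gene windows of the 10 genes, with optimal summits as red diamonds, other candidates as grey circles and the lowest optimal signal as a dashed line. The summits of xol-1 at 797 and 357 and of dpy-28 at 831 stand well above the line, those of sdc-2 at 154 and 90.9 above or on it, and those of tra-1 and dpy-27 reach 89.3 and 89.1 just below it.

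The switch gene xol-1 (WBGene00006962, chrX:8041313-8044409, plus strand) had the strongest summits of the X-linked members, and they lay far from the gene. Both of its optimal summits were in intergenic sequence, in a single interval at chrX:8036126-8036905. The stronger summit, at base 8036465, was 4848 bp upstream of the annotated 5' end of xol-1, which was nevertheless the nearest 5' end of any protein-coding gene. The pooled list gave it a signal of 797, against 498 for replicate 3 and 296 for replicate 4 alone. It ranked 7, 8 and 7 in these lists and stood 6.10-fold above the median optimal peak. The weaker summit, at base 8036669, was 204 bp closer to xol-1. The pooled list gave it 357, replicate 3 gave 249 and replicate 4 gave 127, with ranks of 79, 63 and 87. Both replicates therefore placed the stronger summit first and both summits near the top of their lists.

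The gene body of xol-1 itself carried little. Its sole candidate there, in a coding exon 1069 bp from the 5' end, had a signal of 28.7 and ranked 18944, and replicate 4 listed no summit in the gene body. Candidates 3356 and 4484 bp downstream of the gene, past its neighbour C18A11.4, had signals of 22.6 and 52.2.

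A tRNA gene lies inside the xol-1 interval. This gene, C18A11.t2 for an arginine tRNA by the RefSeq annotation (WBGene00022939, chrX:8036685-8036757, minus strand), was 220 bp from the stronger summit and 16 bp from the weaker one. A non-coding RNA gene of unclassified function, C18A11.13, overlaps it on the other strand and came within 209 and 5 bp of the same summits. A gene for a proline tRNA, C18A11.t1 (chrX:8037507-8037578, plus strand), stands between the interval and xol-1. Of the 216 optimal summits within 250 bp of a tRNA gene, the stronger xol-1 summit ranked 1 and the weaker one 3. Among the 15 X-linked peaks of the 25 strongest, the xol-1 peak was the 1 with a tRNA gene within 250 bp. The sequence of the arginine tRNA gene occurs 10 times in the reference without a mismatch, on either strand. How many of the reads within the gene belong to this copy is therefore uncertain. The stronger summit lies 220 bp outside the gene, and whether the sequence there is repeated was not tested. Given distance alone, neither summit can be assigned to xol-1 rather than to the tRNA gene.

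The sequences at the xol-1 summits and in the tRNA gene are shown because they differ in the short words they hold. Each summit window has 101 bp centred on the summit, on the plus strand of the RefSeq sequence of ce11, and capitals mark any of 8 words searched on both strands. In order of their share of optimal windows these were CTCTCTC (9.90% of windows), GTTCGA (8.86%), GAGACGC (8.29%), CACGTG (8.24%), CTGCGTC (7.98%), ACGCAGA (7.88%), CGCCAGC (3.58%) and GCGCAGG (1.87%). The word CTGCGTC overlaps in part, on its opposite strand, with both GAGACGC and the word ACGCAGA, which in turn overlaps in part with the word GCGCAGG. In the tRNA gene, written along its own strand, capitals mark GTTCGA, part of the internal promoter of tRNA genes known as the B box.
xol-1, stronger summit (chrX:8036415-8036515): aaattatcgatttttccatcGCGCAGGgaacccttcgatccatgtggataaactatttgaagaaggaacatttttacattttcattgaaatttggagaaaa
xol-1, weaker summit (chrX:8036619-8036719): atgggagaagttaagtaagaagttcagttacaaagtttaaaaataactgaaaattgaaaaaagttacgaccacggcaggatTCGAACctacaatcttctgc
Arginine tRNA gene (chrX:8036685-8036757): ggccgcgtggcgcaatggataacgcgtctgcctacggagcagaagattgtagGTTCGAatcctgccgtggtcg

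The weaker window reaches into the tRNA gene and holds its B box word, read here on the opposite strand. GTTCGA was in 8.86% of optimal windows and 4.41% of windows at candidates outside the optimal list, both over all chromosomes. Of the optimal windows on X alone, 11.2% held it. The stronger window had no GTTCGA. It held GCGCAGG, whose centre lay 27 bp from the summit. This word is the core of a longer motif known from the recruitment sites of the dosage compensation complex on X. The windows were poor in G and C, at 33.7% for the stronger and 34.7% for the weaker summit, against a median of 46.5% over all optimal windows and 40.6% over windows at other candidates.

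**Figure D2:**
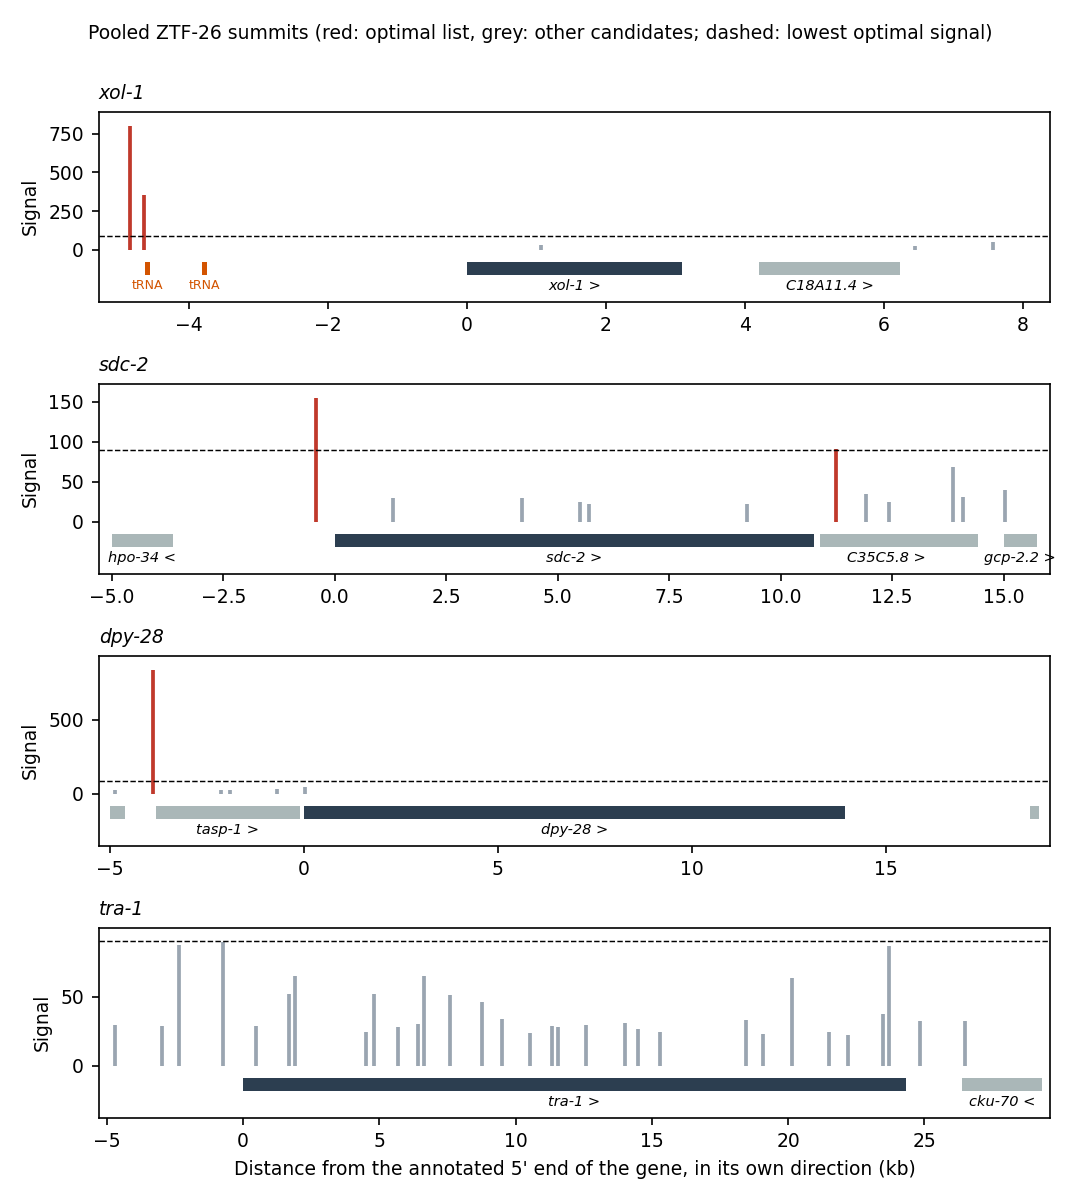
Signal of the pooled summits of xol-1, sdc-2, dpy-28 and tra-1 by distance from the annotated 5' end of each gene in kb, with genes as bars (the named gene dark, protein-coding neighbours grey, tRNA genes orange, > along and < against the named gene). Optimal summits are red, other candidates grey, and the dashed line is the lowest optimal signal. The xol-1 summits lie beside a tRNA gene, the dpy-28 summit at the start of tasp-1 and the stronger sdc-2 summit just before sdc-2, whereas the summits of tra-1 are spread over the gene and stay under the line.

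The X signal elements had weak candidates. At sex-1, a nuclear hormone receptor gene (WBGene00004786, chrX:10201329-10205421, minus strand), 7 candidates had signals from 23.5 to 63.7. The strongest was 503 bp past the 3' end, with 37.2 in replicate 3 and 19.3 in replicate 4. The candidate closest to its 5' end, 147 bp upstream, had a signal of 57.9 in the pooled list and 41.7 in replicate 3, and no summit within 100 bp in replicate 4. At fox-1, an RNA-binding protein gene (WBGene00001484, chrX:2445117-2459893, minus strand), 4 candidates had signals from 32.6 to 38.5, with 2 in an intron and 2 upstream. Replicate 3 listed 8 candidates in the fox-1 window and replicate 4 listed 0. Of all genes, 69.3% had no candidate or a weaker strongest one than sex-1, and 44.3% than fox-1.

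Of the sdc genes, sdc-2 alone had optimal summits. SDC-2 is the hermaphrodite-specific protein that starts assembly of the dosage compensation complex on X. The first summit (chrX:11522070-11522509) was intergenic and 417 bp upstream of the 5' end of sdc-2 (WBGene00004746, chrX:11522707-11533450, plus strand), the closest gene. It had a signal of 154 when the replicates were pooled, 112 in replicate 3 and 43.3 in replicate 4. Its ranks were 661, 508 and 1414, so it stood far below the xol-1 summits in all 3 lists and was placed higher in replicate 3 than in replicate 4. The second summit (chrX:11533730-11534169), 500 bp past the 3' end of sdc-2, was in a 5' untranslated region of the next gene, C35C5.8, and 136 bp upstream of another annotated 5' end of that gene. The genes lie on the same strand with 142 bp between them. This summit had a signal of 90.9 in the pooled list, rank 1905, and was among the last in the optimal list, with 67.5 in replicate 3 and 31.9 in replicate 4. A further candidate, 3127 bp downstream at the start of C35C5.9, had a signal of 68.1. The other 9 candidates of the window, several in coding exons of sdc-2, reached at most 40.3.

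The sdc-1 gene, which encodes a zinc finger protein (WBGene00004745, chrX:16275763-16282534, plus strand), had 5 candidates with signals from 24.1 to 55.8 and none inside the gene. The one at its promoter, 335 bp upstream, had a pooled signal of 54.6, with 31.6 in replicate 3 and 26.8 in replicate 4. Its candidates 4347 bp upstream (49.3) and 2860 bp downstream (55.8) were 49 and 28 bp from genes for glutamate tRNAs, F52E10.t5 and F52E10.t3. As at xol-1, tRNA genes were thus close to summits of the window, but here signals were under the optimal list and uneven between replicates. The upstream candidate had 35.7 in replicate 4, and no peak of replicate 3 overlapped it. The downstream candidate had 39.3 in replicate 3 and 13.6 in replicate 4, where it ranked 19916. The nearest optimal summit, 8184 bp downstream, had a signal of 103. The autosomal gene sdc-3, which encodes a further zinc finger protein (WBGene00004747, chrV:15039148-15048207, minus strand), had 0 candidates in its window, whether replicates were pooled or read alone. Of all protein-coding genes, 83.5% had a pooled candidate.

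Among the genes for condensin-like subunits, dpy-28 had its strongest summit at the start of another gene. The strongest at dpy-27 was just below the optimal list. Of all genes, 99.9% had no candidate or a weaker strongest one than dpy-28, and 80.5% than dpy-27. In the window of dpy-28 (WBGene00001087, chrIII:10763131-10777076, plus strand), the peak at chrIII:10759080-10759451 was the strongest of any member. Its pooled signal was 831, with 590 in replicate 3 and 245 in replicate 4, and it ranked 6, 2 and 18. The summit was 3889 bp upstream of dpy-28 but 65 bp upstream of tasp-1, a threonine aspartase gene that fills the sequence between them and ends 109 bp before dpy-28 on the same strand. By distance the peak is at the promoter of tasp-1. At the start of dpy-28 itself a candidate had a signal of 44.0 and ranked 8019.

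At dpy-27, the SMC-type ATPase gene of the complex (WBGene00001086, chrIII:3813018-3819679, minus strand), 10 candidates had signals from 24.3 to 89.1. The strongest, 638 bp upstream of its 5' end and 44 bp from the non-coding RNA gene R13G10.5, had a pooled signal of 89.1, with 58.7 in replicate 3 and 27.1 in replicate 4. It ranked 1977, shortly after the last optimal peak at 1929. The next, 1305 bp past the 3' end, had 71.6 in the pooled list, with 52.0 in replicate 3 and 15.2 in replicate 4. The third, 256 bp past the 3' end, had 69.8 and ranked 1928 in replicate 4 with a signal of 38.2. That candidate brought dpy-27 into the list of replicate 4 alone.

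The sequences at the strongest upstream summits of 4 members are shown because they differ in composition and hold few of the words. All windows have 101 bp on the plus strand of ce11, from RefSeq, and capitals mark the same 8 words.
sdc-2, upstream summit (chrX:11522240-11522340): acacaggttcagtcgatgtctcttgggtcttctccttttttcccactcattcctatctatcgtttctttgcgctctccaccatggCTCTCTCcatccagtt
dpy-28, summit at tasp-1 (chrIII:10759192-10759292): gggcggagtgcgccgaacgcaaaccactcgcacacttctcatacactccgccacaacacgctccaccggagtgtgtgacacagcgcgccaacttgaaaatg
dpy-27, upstream candidate (chrIII:3820267-3820367): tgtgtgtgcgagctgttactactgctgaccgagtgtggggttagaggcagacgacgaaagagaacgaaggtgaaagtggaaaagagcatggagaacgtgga
tra-1, upstream candidate (chrIII:11195891-11195991): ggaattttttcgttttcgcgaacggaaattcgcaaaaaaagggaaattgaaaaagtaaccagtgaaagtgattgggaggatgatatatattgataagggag

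The tasp-1 window had 59.4% G and C and held none of the 8 words, although its peak was among the strongest of the genome. The sdc-2 window had 47.5% and held CTCTCTC, found in 9.90% of optimal windows. The dpy-27 window, at 51.5%, and the tra-1 window, at 35.6%, held none. Of the 5 optimal member windows 3 held a word, and those of the second sdc-2 summit and of the dpy-28 summit held none. Over all optimal windows, the share that held none was 61.6%.

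Neither her-1 nor tra-1 had an optimal summit. At her-1, which encodes the secreted protein that triggers male fate (WBGene00001842, chrV:9697015-9702035, plus strand), none of the 4 candidates was inside the gene. The strongest, with a signal of 58.5, was 4518 bp upstream and 338 bp upstream of the zinc finger gene ztf-9. It had 38.9 in replicate 3, while the nearest summit of replicate 4 was 133 bp away with a signal of 26.1. The others, from 24.1 to 51.9, were in the downstream gene xbx-6.

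The tra-1 gene (WBGene00006604, chrIII:11170890-11195201, minus strand) had the most candidates of the 10, 31 in its window of 34.3 kb. That is 9.03 per 10 kb, against a median of 2.43 over all protein-coding genes, of which 97.6% had fewer per 10 kb. Of the 31, 17 were in introns, 7 in coding exons, 2 in the 3' untranslated region, 4 between genes and 1 in a pseudogene. Replicate 3 listed 30 candidates there and replicate 4 listed 22, yet 4 of the pooled 31 had a summit within 100 bp in both. The spread over the gene was thus seen in both replicates, but most summits had no match within 100 bp in both. This holds for that distance only. Many further candidates, among them the one 740 bp upstream of the 5' end, had an overlapping peak interval in each replicate.

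Of the tra-1 candidates, 3 came close to the optimal list, whose lowest signal was 90.2. The first, 740 bp upstream of the 5' end, had 89.3 and rank 1966, with 66.6 in replicate 3, while the nearest summit of replicate 4 was 131 bp away with a signal of 27.7. The second, 2335 bp upstream, had 87.1 and rank 2055, with 48.0 in replicate 3 and 42.8 in replicate 4. The third, in the 3' untranslated region, had 86.9 and rank 2069, with 52.7 and 30.4. Replicate 3 ranked the first at 1538 and replicate 4 ranked the second at 1463, each inside a list as long as the optimal one. With the dpy-27 summit, these were the 4 member summits ranked between 1929 and 2500, and all 4 had the same q-value as the optimal peaks.

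Replicate 3 gave the higher signal at each of the 5 optimal summits, and also at the median of the whole list. The ratio of replicate 3 to replicate 4 was 1.68 and 1.95 at the xol-1 summits, 2.58 and 2.12 at the sdc-2 summits and 2.41 at the dpy-28 summit. Over the 1754 optimal peaks with a summit within 100 bp in both replicates, the median ratio was 1.73, and 1.14 and 2.68 were its 10th and 90th percentiles. The member summits lay between these, and the xol-1 summits were closest to the median.

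**Figure D3:**
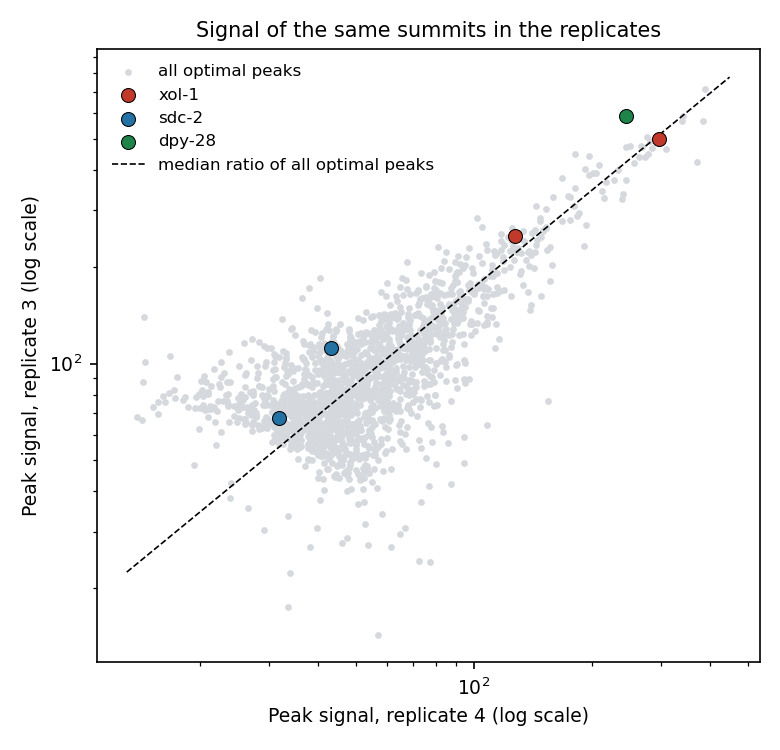
Peak signal in replicate 3 against replicate 4, both on log scales, for optimal peaks with a summit within 100 bp in both replicates (grey), with the xol-1, sdc-2 and dpy-28 summits coloured and the median ratio of 1.73 as a dashed line. The stronger xol-1 summit and the dpy-28 summit are near the top of both axes, and the sdc-2 summits are among the bulk of the peaks.

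The peaks most like the stronger xol-1 peak were chosen by the distance between log2 signals in the 2 replicates. They were the peak nearest Y17G9B.5 on IV (signal 769, 491 in replicate 3 and 281 in replicate 4, distance 0.08), that nearest K02D3.1 on X (782, 505 and 277, distance 0.10) and that nearest C41A3.2 on X (753, 469 and 284, distance 0.11). Their nearest tRNA genes were 112, 12.8 and 21.6 kb away. The peak nearest C41A3.2 was 15228 bp from that 5' end, in a coding exon of pks-1.

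The word GCGCAGG, held at the stronger xol-1 summit, was frequent among the strongest peaks of X. The counts for optimal peaks of X given here include the xol-1 peak itself. It was searched after the peak lists had been read. It was in the 101 bp window of 9 of the 15 X-linked peaks among the 25 strongest (60%), against 0 of the 10 autosomal ones. Among the 100 strongest it was in 11 of 29 on X (37.9%), against 1 of 71 on the autosomes (1.41%). Over the whole optimal list it was in 19 of 463 (4.10%), against 17 of 1466 (1.16%). Windows at other candidates held it in 0.50% on X and 0.40% on the autosomes. Of all windows of 101 bp tiled over the reference, 0.184% on X and 0.187% on the autosomes held it, so the word itself is no more common on X. These shares are descriptions, and a match is not a shown site of the dosage compensation complex, whose binding was not measured here.

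**Figure D4:**
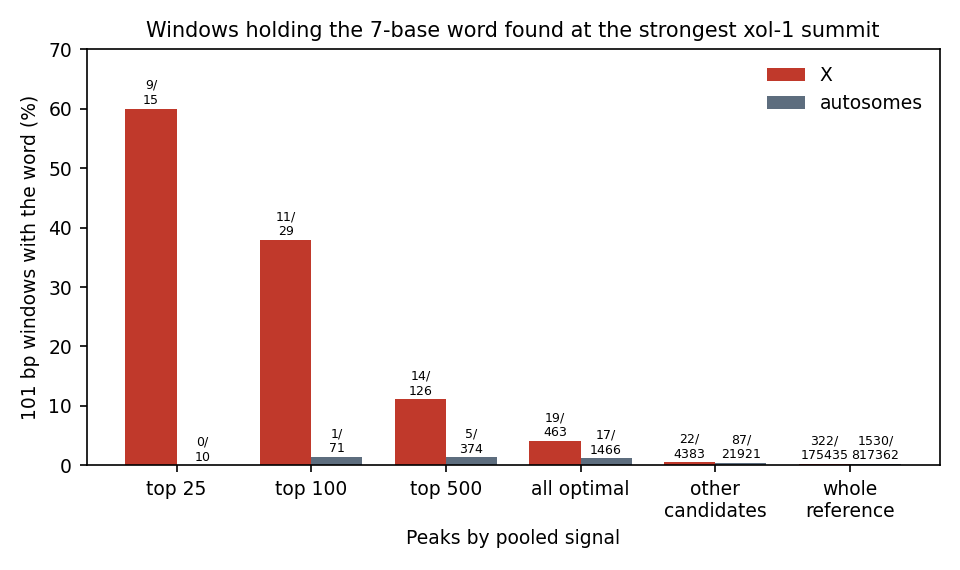
Share of 101 bp windows that hold GCGCAGG on either strand, for X (red) and the autosomes (grey), among the 25, 100 and 500 strongest pooled peaks, all optimal peaks, other candidates and the whole reference, with counts above the bars. On X the share falls as peaks are added, from 9 of 15 in the first bar to 19 of 463 over the optimal list. These counts include the xol-1 peak itself. On the autosomes the share stays at 1.41% or under.

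The 9 sites share more than the word searched. Each is printed with 12 bases on either side along the strand that reads GCGCAGG, named by the nearest protein-coding 5' end, and capitals mark the word.
W02H3.3 (chrX:11094215-11094245, - strand): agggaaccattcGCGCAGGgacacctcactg
cest-16 (chrX:6296536-6296566, + strand): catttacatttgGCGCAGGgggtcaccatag
nspc-17 (chrX:14525889-14525919, - strand): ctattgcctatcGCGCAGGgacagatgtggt
xol-1 (chrX:8036423-8036453, + strand): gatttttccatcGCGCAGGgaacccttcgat
F20B6.9 (chrX:4209255-4209285, - strand): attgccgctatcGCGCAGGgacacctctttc
C41A3.2 (chrX:5429578-5429608, + strand): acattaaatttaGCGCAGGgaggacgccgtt
Y41G9A.17 (chrX:2997112-2997142, - strand): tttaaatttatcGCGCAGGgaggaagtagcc
F22H10.2 (chrX:16682088-16682118, - strand): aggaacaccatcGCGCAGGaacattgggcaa
gtr-1 (chrX:806662-806692, + strand): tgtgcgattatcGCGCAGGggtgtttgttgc

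The base 2 before the word was T in all 9 sequences, and the base directly before it was C in 7. The base directly after it was G in 8 and the next was A in 7. The xol-1 site, itself 1 of the 9, had the commonest base at each of these 4 positions. The bases beside the word elsewhere in the genome were not compared. Farther out, no base was shared by more than 6 of the 9. The distance of the word's centre from the summit was 1 to 34 bp over the 9 peaks, with xol-1 at 27 bp. Of the members, xol-1 was the only one with the word at an optimal summit.

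Other genes of the pathway were examined from a list of 39 names, of which 36 matched the annotation. Of these, 10 (27.8%) had an optimal summit in their gene window, against 19.1% of all genes, and 2 (5.56%) in their promoter window, against 5.69%. The promoter share was that of any gene. The groups described next hold 3 to 10 genes each, and their counts stand against the same 19.1%. With so few genes, no group count is a result about its group.

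Among 7 genes of the dosage compensation complex and its chromatin partners, 3 had an optimal summit, against 19.1% of all genes. At set-4, a histone H4 lysine methyltransferase gene, it was 264 bp upstream, with a pooled signal of 212, 123 in replicate 3 and 88.1 in replicate 4. At mix-1, which encodes the SMC partner of DPY-27, it was in a coding exon 15985 bp from its own 5' end and 3396 bp from that of M106.8, with 186, 111 and 75.2. At dpy-21, a histone demethylase gene, it was 2193 bp upstream but 563 bp upstream of Y59A8B.24, with 222, 167 and 57.8. The other 4 had none. Of 4 other condensin genes, 0 had an optimal summit.

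Of 3 further signal elements, 2 had one, against 19.1% of all genes. At ceh-39, a homeobox gene and X signal element, the summit was 2623 bp upstream, 24 bp from a tRNA gene and 1927 bp upstream of T26C11.8, with a pooled signal of 128, 70.9 in replicate 3 and 54.8 in replicate 4. At sea-2, an autosomal signal element, an intronic summit had a pooled signal of 96.2 and 63.7 in replicate 3, with no summit within 100 bp in replicate 4.

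Of 7 genes downstream of her-1, 4 had an optimal summit, against 19.1% of all genes, and 0 had one in the promoter window. Of these 4 genes, 3 had another gene's 5' end closer to each of their summits. At tra-2, the gene of the HER-1 receptor, the summits were 21 bp upstream of a 5' end of ceh-38 (132) and 560 bp upstream of eif-2Bgamma (98.3, with no summit within 100 bp in replicate 3). At tra-4 it was 190 bp upstream of kin-29 (213), and at laf-1, an RNA helicase gene, 143 bp upstream of swsn-3 (134). At tra-3, a calpain protease gene, it was 1231 bp upstream of tra-3 itself (98.1, with no summit within 100 bp in replicate 4). Of 10 germline sex genes, 1 had one. This was mog-4, an RNA helicase gene, at 255 bp upstream with a pooled signal of 370, 243 in replicate 3 and 124 in replicate 4, the strongest of the 36 genes. Of 5 targets of tra-1, 0 had one.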

How the data were processed

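The labels describe anti-GFP ChIP-seq of ZTF-26-GFP worms, with replicates 3 and 4 in 1 group. Per the deposited lists of files, the authors derived each replicate's peak list from its alignment and a further file that is not described, a pooled list from both alignments and that file, and an optimal list of reproducible peaks (IDR) from these lists. The aligner, the peak caller and the IDR threshold are not given in the sources used here. The deposited lists give each peak a signal of unstated scale and a −log10 q-value. All optimal peaks had a −log10 q of 3.63, which 200 other candidates shared, and they were the 1929 pooled peaks of highest signal.

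Lists on ce11 were read with Ensembl release 115 and the RefSeq sequence of the same build (WBcel235). Peaks and genes lay within the reference chromosomes, and coordinates are 1-based. Lists on ce10 were not used. Python 3.11.15, pandas 2.3.3 and numpy 2.4.6 were used. Ranks follow signal. Replicate summits within 100 bp of a pooled summit counted as the same, and counting in windows was tested on simulated data. Shares of protein-coding genes and of 101 bp windows served as background, with no test. Every summit of the 10 genes was read, and other pathway genes are named where they had an optimal summit, with the 3 peaks most like the strongest xol-1 peak. The members, gene lists and words were chosen with earlier results of these data known, and GCGCAGG was added from knowledge of the recruitment sites on X after the lists had been read.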

Additional observations from a re-analysis of the deposited data

How the results depend on the processing

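The width of the gene window had the largest effect. With 2000 bp on each side, 1 of the 10 genes (sdc-2) had an optimal summit, 2 optimal summits lay in the windows, and the strongest summit left to xol-1 ranked 18944. With 10000 bp, 5 genes had one, since sdc-1 and dpy-27 were reached. With the peaks of 1 replicate alone, the count of genes ran from 4 to 5 in gene windows (against 18.9% of all genes either way), from 1 to 2 in promoter windows (tra-1 was added without replicate 4) and from 8 to 9 for candidates of any rank. The optimal summits in the windows then numbered 6 either way, other pathway genes numbered 10 to 12, and the strongest xol-1 summit ranked 7 to 8. A stricter list of the 965 strongest peaks, whole peak intervals in place of summits, and a promoter window reaching 2000 bp upstream left the counts within 1.5 times of those reported. No paired analysis was possible because the samples form 1 group. Depth is unknown, so a gene without a summit is one at which none was listed, not one shown to be free of ZTF-26.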
